A study of Mus musculus with 4 samples.

Results

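The 8 miRNAs described here were grouped as ones that bypass the Microprocessor or are noncanonical, and for 7 of them a route to the mature form that leaves out part of the usual pathway, or an origin in another small RNA, is given below as background. They were taken by number from the 942 mature miRNAs counted in mouse cortex, namely miR-320, miR-484, miR-702, miR-877, miR-1224, miR-1839, miR-1983 and miR-5099, and where both arms of a hairpin were counted the arm with the most summed reads was taken. The members were therefore miR-320-3p, miR-484, miR-702-3p, miR-877-3p, miR-1224-5p, miR-1839-5p, miR-1983 and miR-5099. Small RNA was sequenced from the cortex of 4 mice of the B6C3 strain aged 9 months, with 2 wild-type animals (WT1, WT2) and 2 AD animals (APP3, APP4). The genotype of the AD animals is APPswe/PS1ΔE9, that is, transgenes for a mutant amyloid precursor protein and a mutant presenilin 1 whose expression is targeted to neurons. Siblings were WT1 and APP4, called group 1, and likewise WT2 and APP3, called group 2, so that a WT and an AD animal made up each pair. Every mouse gave 1 library of whole cortex, in which fewer cells of a type and less RNA per cell cannot be told apart.

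A canonical miRNA is cut from its primary transcript by the Microprocessor, a complex of the nuclease Drosha and its partner Dgcr8, exported by exportin 5, cut again by Dicer and loaded into an Argonaute protein. Mirtrons, of which miR-877, miR-1224 and miR-702 are examples, are short introns released by the spliceosome, so that splicing takes the place of the Drosha cut. miR-320 and miR-484 are transcribed directly as short hairpins with a 5′ cap, which keeps the 5′ arm of miR-320 out of Argonaute. A small nucleolar RNA can be trimmed to a miRNA-like fragment, and so can the 3′ end of a tRNA precursor, and miR-1983 lies in the precursor of an isoleucine tRNA. The origin of miR-5099 is not given in the sources used here.

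In the RefSeq tables for GRCm38, 7 of the 8 members had a hairpin and 6 had a mature sequence of the counted arm. The hairpins of the mirtrons and of miR-1983 are shown first, with the annotated mature arms in capitals. Mir877 and Mir1224 carry both intron ends, Mir702 stops short of the last bases of its intron, and Mir1983 carries the tRNA. Mir1839 and Mir484 follow as the small Cajal body RNA and the capped hairpin.
Mir877: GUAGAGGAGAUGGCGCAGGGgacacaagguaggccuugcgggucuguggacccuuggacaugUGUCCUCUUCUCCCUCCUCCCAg
Mir1224: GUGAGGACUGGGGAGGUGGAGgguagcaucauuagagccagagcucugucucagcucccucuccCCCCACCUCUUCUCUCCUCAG
Mir702: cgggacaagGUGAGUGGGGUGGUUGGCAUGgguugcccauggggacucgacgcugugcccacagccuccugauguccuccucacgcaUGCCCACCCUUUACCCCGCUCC
Mir1983: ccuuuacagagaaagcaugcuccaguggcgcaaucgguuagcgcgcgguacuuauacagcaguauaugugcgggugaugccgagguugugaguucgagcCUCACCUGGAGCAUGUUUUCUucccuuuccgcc
Mir1839: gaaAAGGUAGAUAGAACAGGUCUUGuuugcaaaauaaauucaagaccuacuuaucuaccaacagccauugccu
Mir484: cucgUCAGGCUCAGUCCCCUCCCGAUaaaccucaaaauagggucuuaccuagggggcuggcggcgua

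Coordinates are on GRCm38. The 85-base hairpins Mir877 and Mir1224 begin with GU and end with AG, the bases that bound an intron, and each equals an annotated intron base for base. Of the 1005 mouse hairpins in the table, 16 (1.59%) equal an annotated intron and 30 (2.99%) begin with GU and end with AG. Mir877 spans chromosome 17, bases 35960730 to 35960814, on the minus strand, in Abcf1, a gene of an ATP-binding cassette protein of translation. Mir1224 spans chromosome 16, bases 20604452 to 20604536, on the plus strand, in Vwa5b2. The 5p arms of both begin at the first base of the intron, the 3p arm of miR-1224 ends at its last base, and that of miR-877 ends 1 base before it. Mir702 (chromosome 5, bases 136991433 to 136991541, plus strand) reaches into the preceding exon of Plod3, the gene of a collagen lysyl hydroxylase. The intron itself runs from 136991442 to 136991543, its first base is the first base of miR-702-5p, and miR-702-3p ends 2 bases before its end.

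Mir1839 spans chromosome 7, bases 81529916 to 81529988, on the plus strand, in an exon of the long noncoding RNA 2900076A07Rik, and overlaps a 127-base gene annotated as a small Cajal body RNA. A small nucleolar or small Cajal body RNA gene on the same strand overlapped 14 hairpins of the table (1.39%). The 132-base Mir1983, on the minus strand of chromosome 13 from 21896918 to 21897049, lies outside annotated genes, with the nearest 6107 bases away. It holds GUUCGANNC, the core of the tRNA internal promoter known as the B box, at bases 92 to 100, where the search was on the RNA strand only. That motif occurred in 5 of the 1005 hairpins (0.498%). The mature miR-1983 begins at base 100 of the hairpin and ends at base 120, and it holds UUUU, a run that ends transcription by RNA polymerase III and that 88 of 1679 mature sequences (5.24%) hold.

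Mir320 spans chromosome 14, bases 70443510 to 70443591, on the plus strand, 63 bases upstream of the start of Polr3d, which is transcribed from the other strand and encodes a subunit of RNA polymerase III. Mir484 spans chromosome 16, bases 14159626 to 14159692, on the plus strand, where it overlaps an exon of 1 transcript of Marf1 on the minus strand. Its mature sequence begins 4 bases into the hairpin, at base 5, and so lies on the 5′ arm. Mir5099 spans chromosome 12, bases 36816205 to 36816278, on the plus strand, and the nearest annotated gene is 61687 bases away. Its hairpin, in which no mature arm is marked, reads as follows.
Mir5099: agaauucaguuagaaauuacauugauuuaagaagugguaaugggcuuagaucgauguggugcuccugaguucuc

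The predicted folding energy per base was -0.504 kcal/mol for Mir1224, -0.435 for Mir702, -0.429 for Mir877, -0.399 for Mir1983, -0.367 for Mir484, -0.359 for Mir5099 and -0.301 for Mir1839, against a median of -0.406 over the 1005 hairpins. The order put Mir1224 at rank 155 of the 1005 and Mir1839 at rank 887, and the 3 mirtrons were more stable per base than the other 4 hairpins.

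The mature members differ in their seeds, bases 2 to 8, which set the targets of a miRNA and are printed in capitals here.
miR-484: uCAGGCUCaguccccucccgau
miR-877-3p: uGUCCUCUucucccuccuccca
miR-1224-5p: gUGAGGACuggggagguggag
miR-702-3p: uGCCCACCcuuuaccccgcucc
miR-1839-5p: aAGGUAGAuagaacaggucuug
miR-1983: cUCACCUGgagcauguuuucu
No seed was shared between these 6 members. Among 754 mature miRNAs of the count table with a sequence, 1 shared a seed with a member, miR-412-3p with miR-1983. Each of the 6 members differed from the nearest other mature sequence by at least 7 edits, with 7 the distance for miR-484, miR-1224-5p and miR-1983.

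The libraries held between 19048747 and 26085776 miRNA reads, and levels are given as reads per 1000000 of these (RPM). A count of 3 reads was worth 0.115 RPM in the deepest library and 0.157 RPM in the shallowest, so all 8 members stood far above the smallest level that could be shown. Of the clean reads, 83.4% were miRNA in both WT1 and APP4, 88.7% in WT2 and 87.6% in APP3, so siblings were alike in this share and each genotype held a low and a high one. The neural markers miR-9, miR-124 and miR-128 were abundant in all 4 libraries, with miR-9-5p between 29300 and 36670 RPM. The muscle markers lay between 97.3 and 125 RPM in sum and the myeloid marker miR-223 between 4.64 and 6.35. The genotypes did not overlap for 4 other marker sums. They also did not overlap for 36.0% of the 623 miRNAs tested over the 4 mice, 27.0% with the AD mice higher and 8.99% with them lower. Both AD mice were above both WT mice for the 2 arms of miR-142, a marker of microglia and blood cells (91.3 and 94.3 against 56.6 and 75.7 RPM). The oligodendrocyte markers in sum were so by a narrow margin (2175 and 2280 against 1909 and 2166). Of the oligodendrocyte arms only miR-338-5p separated the genotypes (135.0 and 135.1 against 111.0 and 105.2 RPM). Both AD mice were below both WT mice for the erythroid markers in sum (3918 and 3097 against 3926 and 4458) and for the liver marker miR-122 (0.940 and 1.68 against 4.52 and 2.31). The erythroid sum was mostly miR-486-5p (3881 and 3053 against 3900 and 4417 RPM). In miR-486-3p, miR-144-5p and miR-144-3p the genotypes overlapped, with higher means in the AD mice, and miR-451a was not in the sum. The 8 members together took between 0.130% and 0.133% of the miRNA reads in WT1, WT2 and APP3 and 0.154% in APP4. Ordered by mean level, they were miR-1839-5p (454 RPM, rank 119 of 942), miR-484 (355), miR-320-3p (276), miR-1224-5p (102), miR-1983 (79.5), miR-877-3p (62.6), miR-5099 (30.1) and miR-702-3p (12.7, rank 357).

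**Figure D1:**
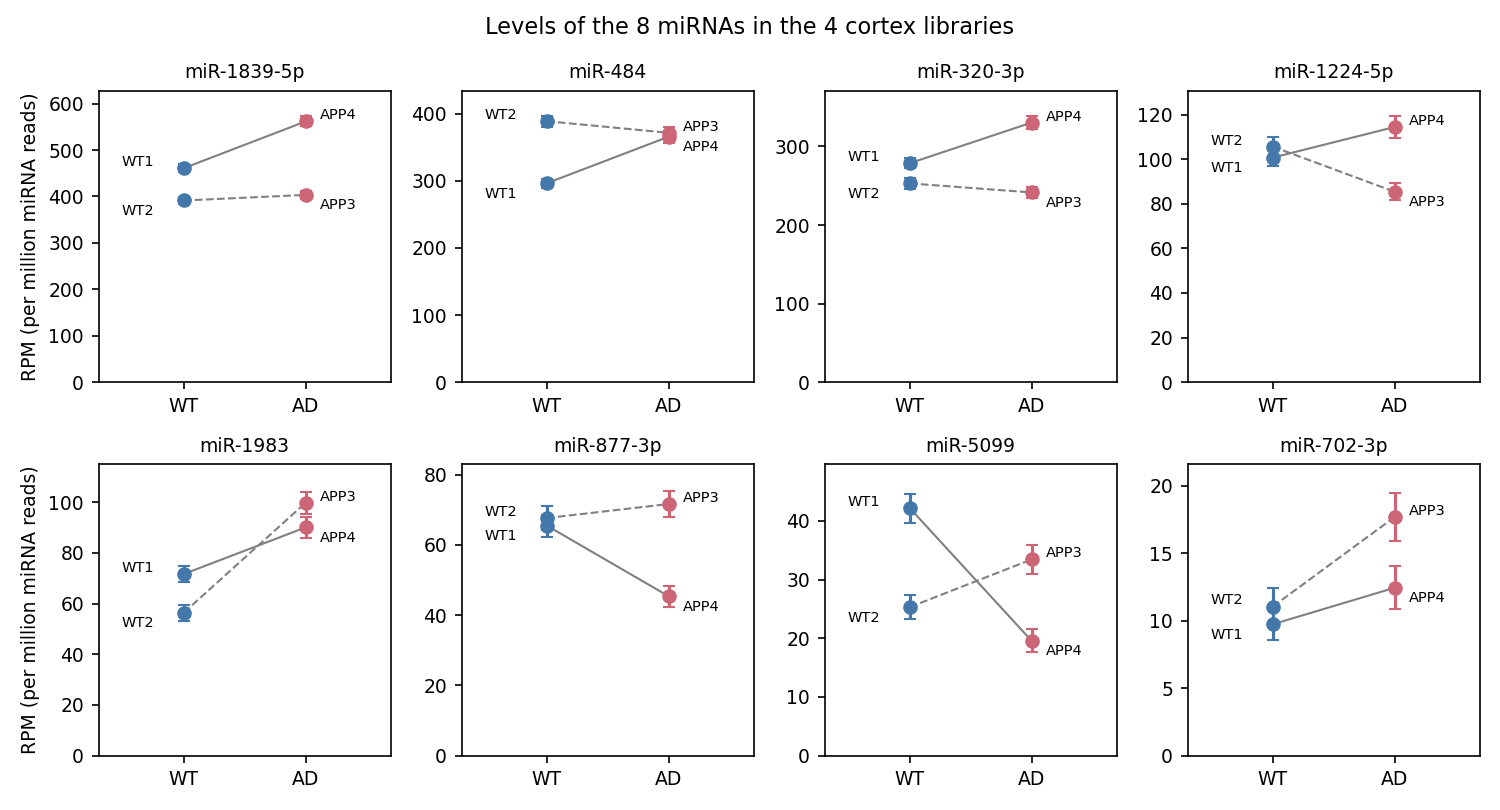
RPM (reads per 1000000 miRNA reads, axes from 0) of the 8 miRNAs in the WT and AD mice, with bars of 95% counting error and lines joining siblings (solid WT1 and APP4, dashed WT2 and APP3). Both AD mice lay above both WT mice for miR-1983 and miR-702-3p, and the lines cross for miR-5099, which ran from 42.2 to 19.6 RPM in one pair and from 25.3 to 33.4 in the other.

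The first question was which members differed between the AD mouse and the WT mouse of a sibling pair. Each pair of libraries was tested read for read with Fisher's exact test, two-sided, and the Benjamini-Hochberg false discovery rate (FDR). A call required an FDR below 0.05 together with a change of 1.5-fold or more, the limits used in the study. This sets 1 library against another and not the genotypes, and the standard errors (SE) of its log2 fold changes cover counting error only. In group 1, 1 of the 8 members was called, miR-5099, which was lower in APP4. Of all miRNAs, 11.6% were called in that pair, 9.68% higher and 1.89% lower. In group 2, 2 members were called, miR-1983 and miR-702-3p, both higher in APP3, where 6.81% of all miRNAs were called, 3.35% higher and 3.46% lower. The median log2 fold change of the 8 members was 0.27 in group 1 and 0.06 in group 2, against 0.21 and 0.05 over all miRNAs tested.

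The same rule was applied between mice of one genotype. Between WT2 and WT1, 1 member was called, miR-5099, lower in WT2, where 10.1% of all miRNAs were called, 7.62% higher and 2.50% lower. Between APP4 and APP3, 2 members were called, miR-5099 and miR-877-3p, both lower in APP4, where 8.05% of all miRNAs were called, 5.07% higher and 2.98% lower. Mice that shared a genotype thus gave 1 and 2 calls, as the sibling pairs did. By FDR alone, whatever the fold, all 8 members passed in group 1 (40.3% of all miRNAs), 6 in group 2 (36.0%), 5 for WT2 against WT1 (40.5%) and 7 for APP4 against APP3 (35.2%).

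miR-1983, from the 3′ end of the isoleucine tRNA precursor, stood at 71.7 RPM in WT1 and 90.0 in its sibling APP4, and at 56.4 in WT2 and 99.7 in its sibling APP3. The AD mice lay above the WT mice without overlap, with means of 94.9 ± 6.86 (SD, n = 2) and 64.0 ± 10.8 (SD, n = 2). APP3 against WT2 gave a log2 fold change of 0.82 (SE 0.05, FDR 3.03e-58) and APP4 against WT1 one of 0.33 (SE 0.05, FDR 4.72e-11), the latter under the limit of 1.5-fold. Mice of one genotype differed too, by a log2 fold change of -0.34 between WT2 and WT1 and of -0.15 between APP4 and APP3. The size of the difference in group 1 changed with the scaling. With library sizes corrected by TMM, a method that assumes most miRNAs do not change, it was 0.08 (Fisher's exact test, FDR 0.247). That in group 2 was 0.80. The AD mice still lay above the WT mice, on a scale where the share of all miRNAs that did so was not counted. The miR-142 arms, miR-338-5p and the neural marker arm miR-124-5p were also higher in both AD mice. For miR-124-5p the AD mice stood at 48.0 and 54.9 RPM, against 44.9 and 43.9 in the WT mice. The liver marker miR-122 was lower in both AD mice. So was miR-486-5p, by a narrow margin (3881 RPM in APP3 against 3900 in WT1). In the other neural, oligodendrocyte and erythroid arms the genotypes overlapped. The part of these cell types in the levels of miR-1983 and miR-702-3p was not tested.

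miR-5099 stood at 42.2 RPM in WT1 and 19.6 in its sibling APP4, and at 25.3 in WT2 and 33.4 in its sibling APP3. The genotypes overlapped, since WT1 was highest and APP4 lowest, with the other 2 mice between them. APP4 against WT1 gave a log2 fold change of -1.11 (SE 0.09, FDR 1.33e-40) and, in the opposite direction, APP3 against WT2 one of 0.40 (SE 0.08, FDR 4.13e-06). The same rule called it between the WT mice, with WT2 1.66-fold below WT1, and between the AD mice, with APP4 1.71-fold below APP3. The 2 mice of each genotype thus differed from each other by more than the means of the genotypes, which were 33.7 ± 11.9 RPM in WT and 26.5 ± 9.79 in AD mice (SD, n = 2).

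Among the mirtrons, miR-702-3p stood at 9.74 RPM in WT1 and 12.4 in its sibling APP4, and at 11.1 in WT2 and 17.7 in its sibling APP3, from between 237 and 376 reads. Here too the AD mice lay above the WT mice. In group 2 the log2 fold change was 0.68 (SE 0.12, FDR 4.21e-08), and in group 1 it was 0.35 (SE 0.13, FDR 0.0190). APP3 was highest, and the AD mice differed from each other by a log2 fold change of -0.51 between APP4 and APP3. With TMM library sizes the 2 WT mice and APP4 lay between 10.6 and 11.4 RPM, and the difference in group 1 was 0.10 (FDR 0.650).

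miR-877-3p stood at 65.5 RPM in WT1 and 45.4 in its sibling APP4, and at 67.7 in WT2 and 71.7 in its sibling APP3. APP4 stood below the other 3 mice. The log2 fold change in group 1 was -0.53 (SE 0.06, FDR 2.50e-18), 1.44-fold and so short of the limit, and in group 2 it was 0.08 (SE 0.05, FDR 0.257). Between the AD mice it was called, with APP4 1.58-fold below APP3. TMM library sizes carried the group 1 difference past the limit, with a log2 fold change of -0.78.

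miR-1224-5p stood at 101 RPM in WT1 and 114 in its sibling APP4, and at 106 in WT2 and 85.4 in its sibling APP3. The AD mice were the lowest and the highest, on either side of both WT mice. Group 1 gave a log2 fold change of 0.18 (SE 0.04, FDR 4.50e-05) and group 2 one of -0.31 (SE 0.05, FDR 6.28e-11), and with TMM library sizes the first became -0.07 (FDR 0.212). On that scale both AD mice, at 104.3 and 85.2 RPM, lay below both WT mice, at 109.5 and 106.7, by a narrow margin for APP4. The share of all miRNAs whose genotypes did not overlap was not counted on the TMM scale. The WT mice differed by a log2 fold change of 0.07, with a 95% interval of -0.01 to 0.15.

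The 2 miRNAs of capped hairpins passed the limit of 1.5-fold in none of the 4 comparisons. Between its lowest and its highest library miR-484 varied 1.31-fold, the narrowest range of the 8 members, and miR-320-3p varied 1.37-fold. miR-484 stood at 296 RPM in WT1 and 365 in its sibling APP4, and at 389 in WT2 and 371 in its sibling APP3. WT1 stood below the other 3 mice, and APP4 and APP3 differed by a log2 fold change of -0.02, with a 95% interval of -0.07 to 0.02. miR-320-3p stood at 279 RPM in WT1 and 330 in its sibling APP4, and at 253 in WT2 and 241.5 in its sibling APP3. APP4 was highest, 1.37-fold above APP3, and the genotypes overlapped. Between siblings, the log2 fold changes in group 1 were 0.30 (SE 0.02) for miR-484 and 0.25 (SE 0.02) for miR-320-3p, and in group 2 both were -0.07 (SE 0.02 and 0.03). With TMM library sizes those of group 1 were 0.05 and -0.01.

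miR-1839-5p, the fragment of a small Cajal body RNA and the most abundant member, stood at 461 RPM in WT1 and 562 in its sibling APP4, and at 391 in WT2 and 403 in its sibling APP3. The siblings WT1 and APP4 lay above the siblings WT2 and APP3. In group 1 the log2 fold change was 0.28 (SE 0.02, FDR 8.42e-49), and in group 2 it was 0.04 (SE 0.02, FDR 0.121). WT2 against WT1 gave -0.24 and APP4 against APP3 gave 0.48. The level moved more between mice of one genotype in the AD group than between siblings.

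**Figure D2:**
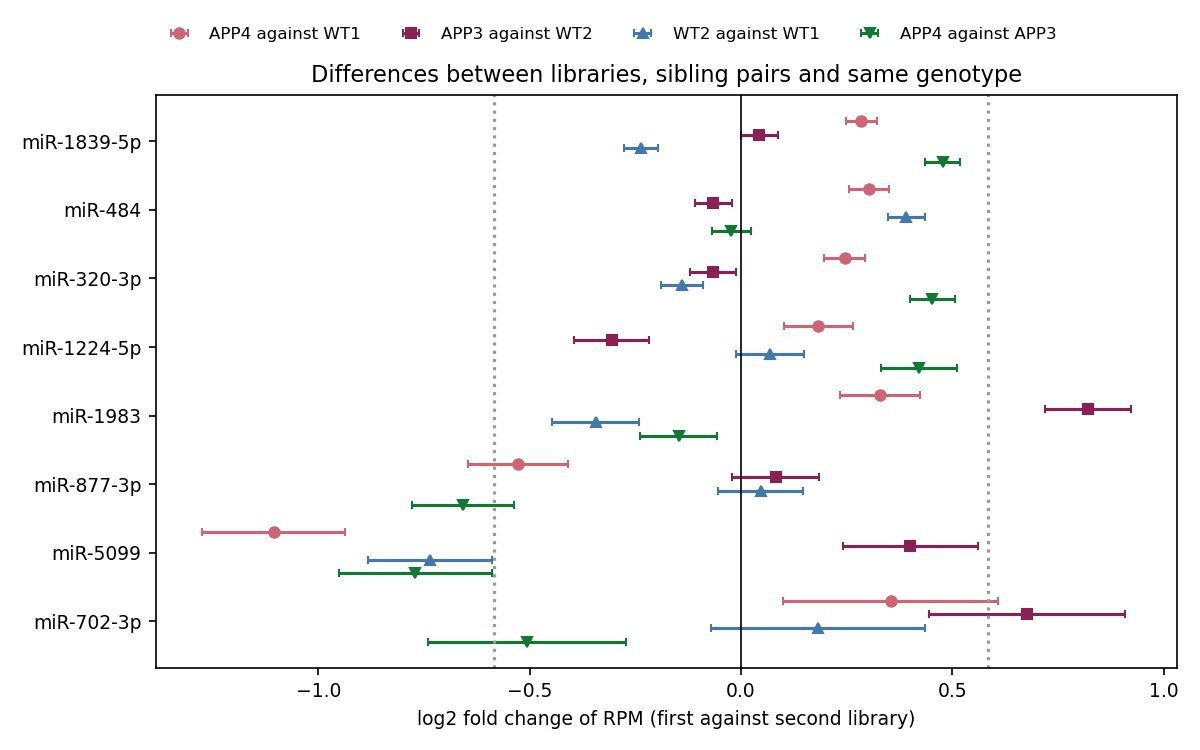
Log2 fold change of RPM (first against second library) of each member in the 2 sibling pairs and between the 2 mice of each genotype, with bars of 95% counting error and dotted lines at 1.5-fold. miR-5099 lies past the lower line in 3 of the 4 comparisons, and miR-1983 lies past the upper line only in APP3 against WT2.

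For 4 of the 8 members the sibling pairs did not overlap in RPM, and 33.4% of the 623 miRNAs tested over the 4 mice showed the same. WT1 and APP4 were above WT2 and APP3 for miR-320-3p and miR-1839-5p, and below them for miR-484 and miR-877-3p. The genotypes did not overlap for 2 members, miR-1983 and miR-702-3p, beside 36.0% of all miRNAs tested, 27.0% with the AD mice higher and 8.99% with them lower. The share of clean reads that matched miRNAs also followed the pairs, and its part in these levels was not tested.

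In group 1, TMM lowered every log2 fold change by 0.25 (a shift of -0.254), and in group 2 by 0.02 (-0.0177). With this correction 2 of the 8 members kept an FDR under 0.05 in group 1, miR-5099 and miR-877-3p, both lower in APP4, where all 8 had one without it.

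Over the 4 mice, the genotypes were compared by the quasi-likelihood test of edgeR on TMM library sizes. All 8 members passed its filter on low counts and none had an adjusted p under 0.05, as was the case for 0 of 623 miRNAs (0.00%). At an unadjusted p under 0.05 there were 0 members and 36 of all miRNAs (5.78%). For miR-1983 the estimate was a log2 fold change of 0.43 (SE 0.24) and for miR-702-3p one of 0.41 (SE 0.25), each with an adjusted p of 0.929 in edgeR. That of miR-5099 was -0.48 (SE 0.38) and that of miR-877-3p -0.31 (SE 0.29), both with an adjusted p of 0.958 in edgeR. For miR-1224-5p it was -0.19 (SE 0.21), for miR-320-3p -0.04 (SE 0.22), for miR-484 -0.02 (SE 0.20) and for miR-1839-5p 0.03 (SE 0.22). The variation between mice of one genotype was 24.0% as the biological coefficient of variation. With 2 mice a genotype, an exact permutation test of a single miRNA cannot go below a two-sided p of 0.333, so none was run. DESeq2 gave 0 members and 0 of all miRNAs at an adjusted p under 0.05, and 0 members were also found by edgeR with the sibling pair as a block and without any 1 mouse. The estimate for miR-5099 rested on single mice, with -1.004 without APP3 (adjusted p 0.0628 in edgeR), -0.81 without WT2, -0.11 without APP4 and -0.01 without WT1. That for miR-702-3p was 0.06 without APP3 and 0.69 without APP4, and that for miR-1983 lay between 0.26 without WT2 and 0.66 without WT1.

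**Figure D3:**
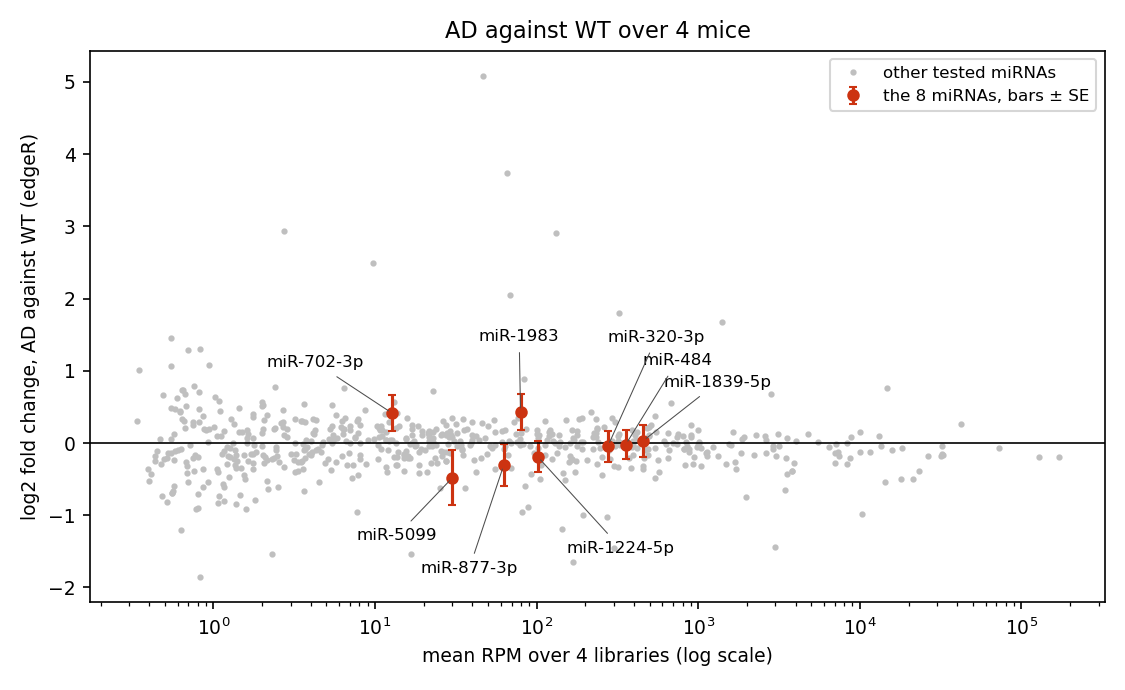
Log2 fold change of AD against WT mice from edgeR against the mean RPM (log axis). The 8 members are in red (bars ± SE, derived from the F statistic) and the other tested miRNAs in grey. The members lie between -0.48 and 0.43, and the largest in size, miR-5099, also has the widest bar.

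The other arm of a hairpin was counted for 5 members, and the ratio of both arms does not depend on the library size. The arm of the member had more reads by the rule that chose it, so that is no result. The capped hairpin of miR-320 gave 1 read of miR-320-5p in WT2 and 0 reads in the other 3 libraries, against 5136 to 7270 reads of the 3p arm. A count of 0 in APP4 allows up to 0.157 RPM. miR-702-5p had between 1 and 5 reads. The mirtrons miR-877 and miR-1224 and the small Cajal body RNA fragment gave both arms in numbers that could be compared.

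miR-1224-3p stood at 16.1 RPM in WT1 and 13.7 in its sibling APP4, and at 28.4 in WT2 and 32.5 in its sibling APP3, while the 5p arm lay between 85.4 and 114. Its share of the reads of both arms was 13.8% in WT1 (95% Wilson interval 12.6 to 15.0) and 10.7% in its sibling APP4 (9.50 to 11.9), and 21.2% in WT2 (19.7 to 22.7) and 27.6% in its sibling APP3 (25.8 to 29.3). The siblings WT1 and APP4 had a low share and the siblings WT2 and APP3 a high one, and both genotypes held one of each. Between the AD mice the arms moved in opposite directions, with miR-1224-3p 2.38-fold lower in APP4 than in APP3 and miR-1224-5p 1.34-fold higher. The ratio of its arms varied 3.19-fold over the 4 libraries, rank 9 among 186 hairpins with at least 10 reads of each arm in each library, whose median was 1.63-fold.

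miR-1839-3p took 5.4% of the reads of its hairpin in WT1 (95% Wilson interval 5.02 to 5.8) and 5.39% in its sibling APP4 (4.99 to 5.83), and 7.51% in WT2 (7.0 to 8.06) and 7.5% in its sibling APP3 (6.98 to 8.06). Siblings had the same share within counting error and the pairs differed beyond it. miR-877-5p took 14.3% of its hairpin in WT1 (12.8 to 15.9) and 19.6% in its sibling APP4 (17.3 to 22.1), and 21.3% in WT2 (19.5 to 23.2) and 16.9% in its sibling APP3 (15.2 to 18.6), an order that followed neither pair nor genotype. The arm shares of the sibling pairs did not overlap in 77 of the 186 hairpins (41.4%), and those of the genotypes in 55 (29.6%), beside the split by pair of miR-1224 and miR-1839.

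**Figure D4:**
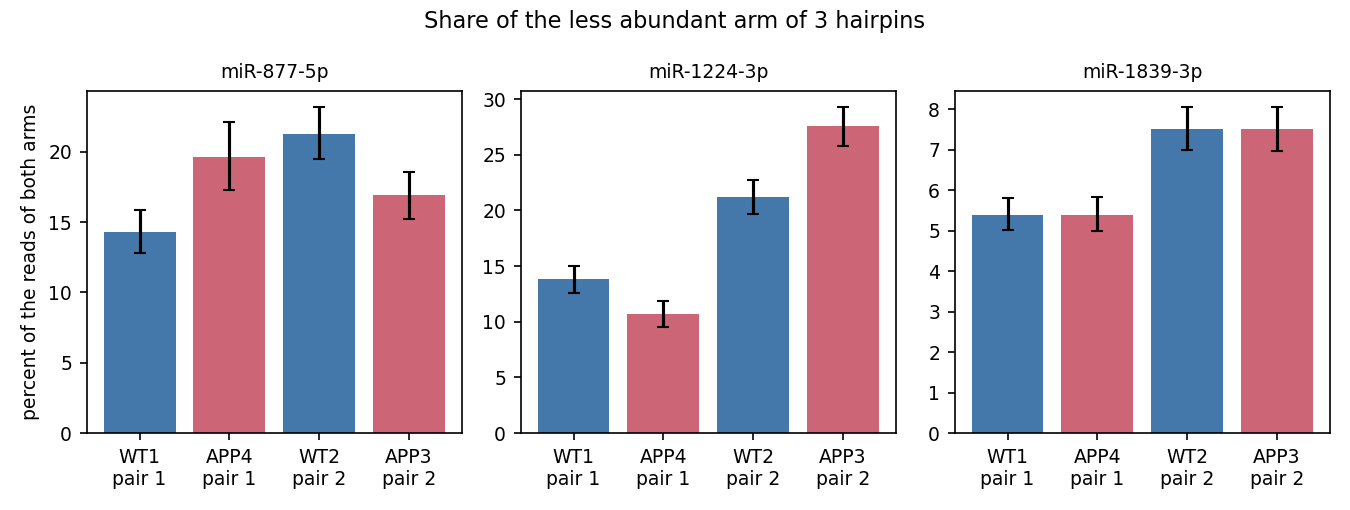
Share of the less abundant arm in the reads of both arms (percent, axes from 0) for the hairpins of miR-877, miR-1224 and miR-1839 in each library, with siblings side by side, WT in blue, AD in red and bars of 95% Wilson intervals. miR-1224-3p and miR-1839-3p are lower in WT1 and APP4 than in WT2 and APP3.

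Of 12 further noncanonical or doubtful miRNA numbers in a second list, 9 had a row, with 11 mature arms. The other 3, miR-720, miR-1291 and miR-1937, were not analysed here. In group 1, 1 of the 11 arms was called higher and 1 lower, where 11.6% of all miRNAs were called, 9.68% higher and 1.89% lower. In group 2, 3 arms were called higher and none lower, where 6.81% of all miRNAs were called, 3.35% higher and 3.46% lower. The 8 arms that edgeR tested gave 0 calls, at the 0.00% of all miRNAs.

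miR-451a, which is cut by Drosha and then sliced by Ago2 in place of Dicer and marks red blood cells, stood at 91.4 RPM in WT1 and 146 in its sibling APP4, and at 199.9 in WT2 and 159 in its sibling APP3. WT1 was lowest, and the log2 fold change was 0.67 in group 1 and -0.33 in group 2. Of the snoRNA-derived miR-664, the 3p arm lay between 266 and 303 RPM, and the 5p arm was lowest in WT2 at 43.2 RPM, with 56.0 in WT1, 60.9 in APP3 and 60.4 in APP4. The mirtron miR-1981 had between 25.8 and 30.0 RPM of its 5p arm and between 50.7 and 70.1 of its 3p arm. The called arms in group 2, miR-5100, miR-5109 and miR-5115, had between 17 and 67 reads a library in APP3 and WT2. They were named after their values were seen. miR-5109 changed direction between the pairs, being 1.67-fold higher in APP3 than in WT2 but called 2.18-fold lower in APP4 than in WT1. WT2 was also called below WT1, 3.8-fold for miR-5109 and 1.95-fold for miR-5115. miR-5115 was 1.87-fold higher in APP3 than in WT2. Between the AD mice no arm of the list was called.

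Among 379 miRNAs whose mean reached 10 RPM, the pattern most like that of miR-1983, by the Euclidean distance of centred log2 RPM over the 4 libraries, was that of miR-1843b-3p (distance 0.186), followed by miR-92a-3p (0.269) and miR-664-5p (0.289). miR-1843b-3p stood at 179 RPM in WT1 and 243 in its sibling APP4, and at 169 in WT2 and 273 in its sibling APP3. Nearest to miR-5099 were miR-151-3p (0.419), miR-148a-3p (0.442) and miR-191-5p (0.456), all at larger distances. These distances rest on 4 libraries.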

How the data were processed

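Small RNA reads of 18 to 35 nt were trimmed and quality-filtered by the authors, who matched them to miRBase 19 and deposited the counts of each mature miRNA, variants included and without normalization. The paper gives at most 2 mismatches for the matching in general and, in another sentence, none for miRBase, so the limit behind these counts is not clear. The authors also deposited RPM values, in columns headed TPM and relative to all clean reads, which served here only to recover the totals of clean reads. The paper names GRCm38 and the submitters' processing notes name mm9 and CASAVA 1.8. The counts carry no coordinates, and loci here are from GENCODE vM21 and RefSeq on GRCm38.

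Counts were scaled to the miRNA reads of each library. Fisher's exact test (scipy 1.17.1), with 0.5 read added for log2 fold changes, and edgeR 4.0.16 (filterByExpr, TMM, quasi-likelihood) in R 4.3.3 were run over all miRNAs with Benjamini-Hochberg adjustment. DESeq2 1.42.0 and RNAfold 2.7.2 were also used. The Fisher and edgeR steps were tested on simulated data.

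The sibling pairs are stated in the paper. After the genotype means were subtracted, siblings had r = 0.235 over 252 miRNAs whose mean reached 50 RPM, as a description. No 2 libraries differed by sampling noise alone. The members and lists were chosen with earlier results of these data known. The named miRNAs were the members, their other arms, the noncanonical list, with RPM values for arms of at least 10 RPM, and the 3 most alike to miR-1983 and miR-5099. The alternatives were library sizes by TMM, by clean reads and without the 10 most abundant miRNAs, 5 reads added, a minimum of 10 RPM, a limit of 2-fold, the sibling block, DESeq2 and its size factors, no TMM, no filter, and each mouse left out. Intervals cover counting error only and not the spread between mice. They treat reads as independent molecules, which PCR copies are not.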

Additional observations from a re-analysis of the deposited data

Results flagged for a closer look

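For 4 members the sibling pairs moved in opposite directions with an FDR under 0.05 in both, a difference between the pairs that was not tested, because each pair is 1 WT and 1 AD animal. By FDR alone 40.3% of all miRNAs passed in group 1 and 36.0% in group 2. How many of all miRNAs passed in both with opposite directions was not counted, so the 4 are not set against a background. Log2 fold changes in group 1 and group 2 were -1.11 and 0.40 for miR-5099, 0.18 and -0.31 for miR-1224-5p, 0.30 and -0.065 for miR-484, and 0.25 and -0.067 for miR-320-3p. With TMM library sizes miR-1224-5p and miR-320-3p had log2 fold changes of -0.070 and -0.0079 in group 1, the direction of group 2. With library sizes without the 10 most abundant miRNAs, miR-484 and miR-320-3p had 0.0044 and 0.0026 in group 2, the direction of group 1.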

How the results depend on the processing

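Of the 96 values of members recomputed for the sibling pairs, 88 kept their direction and were called, or not, as before. An FDR of 0.05, whatever the fold, was crossed by 12 of the 96, 6 with TMM library sizes in group 1 and 6 with library sizes without the 10 most abundant miRNAs, where 10 lost it and 2 gained it, miR-877-3p (FDR 0.0124) and miR-1839-5p (FDR 1.17e-06) in group 2. None of the 72 recomputed over the 4 mice passed an adjusted p of 0.05. The members called in group 1 rose from 1 to 2 with TMM library sizes and with library sizes without the 10 most abundant miRNAs, through miR-877-3p at -0.78 and -0.61 on the log2 scale. Those in group 2 fell from 2 to 0 with a limit of 2-fold, and of all miRNAs 23 then passed in group 2 and 50 in group 1. A minimum of 10 RPM, which tests fewer miRNAs, gave 50 in group 1 and 30 in group 2. In group 1, TMM library sizes reversed miR-320-3p to -0.0079 and miR-1224-5p to -0.070. In group 2, library sizes without the 10 most abundant miRNAs reversed miR-320-3p (0.0026) and miR-484 (0.0044). Over the 4 mice, no TMM reversed miR-320-3p (0.11) and miR-484 (0.11), and no filter (0.0043) and DESeq2 (0.0033) reversed miR-484. Leaving out a mouse gave miR-320-3p between -0.23 and 0.11, miR-484 between -0.17 and 0.16, miR-877-3p between -0.75 and 0.023 and miR-1839-5p between -0.17 and 0.20. The number of members with an adjusted p under 0.05 was 0 under each alternative, with the sibling pair as a replicate block included, where 2 of all miRNAs passed against 0 without it. Of all miRNAs, 3 passed without WT1, 21 without APP3 and 5 without APP4. The cause of these changes was not tested. Counting error limits miR-702-3p, with 237 reads in APP4, more than the other members.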
